A study of Fukomys damarensis with 16 samples.

Results

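The 100 genes described here were abundant in every library of a messenger RNA survey of the Damaraland mole-rat, Fukomys damarensis. They were chosen by their lowest value: of the 21082 genes in the deposited table, they had the highest minimum RPKM (reads per kilobase of gene model, scaled to library size) over all 16 libraries, with ties ordered by identifier. Damaraland mole-rats live in burrow colonies in which reproduction is left to few animals and the other adults do not breed. In mammals, messenger RNAs that are abundant in all tissues commonly encode parts of the ribosome, the respiratory chain, the cytoskeleton and the machinery that folds and degrades proteins. The table gives each gene an identifier without a name, and 0 of the 21082 identifiers matched the 33132 RefSeq genes of the species. Which of these functions the 100 genes have is therefore not known here, and they are called members and named by identifier.

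The libraries were made from poly(A)-selected RNA of animals classed by breeding status and sex. All 4 classes (breeding female, breeding male, non-breeding female and non-breeding male) were sampled for kidney, liver and brain. For ovary there were both female classes and for testis both male classes. The non-breeding males were 5 years old and the non-breeding females 3 years, while no age is given for the breeding animals. No genetic alteration or treatment is given for any group. Among the brain libraries, that of the non-breeding male has the label brain and the others frontal brain.

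Each combination of tissue, status and sex had 1 library, and the labels do not say which libraries share an animal or hold pooled animals. The p-values thus reflect no more than how far these libraries spread, which may be technical. Status and age cannot be told apart, nor can sex and age among the non-breeding animals. Libraries held between 15393003 and 27593857 reads on genes. In the 4 liver libraries these reads came to 1.55 to 1.97 times the read number by which the authors divided, against 0.665 to 0.945 times in the other tissues. RPKM columns consequently added up to between 1172846 and 1536307 in liver, against between 430941 and 681080 elsewhere. The sources used here do not give what the divisor counts, so tissue comparisons are given for the deposited values and for values rescaled to an equal column total. The breeding male brain and breeding female kidney libraries stood apart within their tissues, and several values that rest on them are also given without them. Since identifiers carry no names, the labelled tissues could not be checked against marker genes, and in tissue RNA fewer cells of a type and less RNA per cell cannot be told apart.

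Minimum RPKM of the members ran between 132.1 and 2278, with a median of 208.7. The last members inside the rule had minima of 132.8, 132.2 and 132.1 RPKM, and the first genes outside it had 131.4, 130.5 and 129.1 RPKM. No member had fewer than 570 reads in any library, so counting error was small for all of them. Coding length, which enters every RPKM value as a divisor, had a median of 735 bases in the members (range 195 to 3126), 1062 bases in the next 900 genes by the same rule and 1056 bases in all genes. Of the members, 42 were shorter than 600 bases, against 21.9% of the next 900 genes and 26.1% of all genes. These lengths are part of the measure that chose the members and were not tested. When reads were ranked without division by length, a comparison added after the data had been seen, 45 of the 100 members were still among the first 100 genes.

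The members held different shares of the messenger RNA in different tissues: most in ovary, least in liver. In ovary they made up 20.0% of the column's RPKM total in the breeding female and 20.5% in the non-breeding female. Kidney libraries gave 15.6% in the breeding female, 14.6% in the breeding male, 13.0% in the non-breeding female and 14.0% in the non-breeding male, a mean of 14.3% ± 1.10 (SD, n = 4), or 13.9% ± 0.815 (SD, n = 3) without the breeding female. The kidney and ovary values did not overlap. Testis gave 12.7% in the breeding male and 13.4% in the non-breeding male. Brain libraries gave 10.6% in the breeding female, 14.8% in the breeding male, 12.2% in the non-breeding female and 10.8% in the non-breeding male, a mean of 12.1% ± 1.95 (SD, n = 4), or 11.2% ± 0.876 (SD, n = 3) without the breeding male. With that library brain spanned the range of both testis libraries and reached into the kidney range, and without it every brain lay below every testis and kidney.

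Liver libraries gave 8.77% in the breeding female, 9.07% in the breeding male, 9.19% in the non-breeding female and 8.56% in the non-breeding male, a mean of 8.90% ± 0.284 (SD, n = 4). All 4 lay below every library of the other tissues. A share of a column total does not depend on the divisor of that column. Because these levels chose the members, the shares are a description and were not tested. Counted in reads on genes and not per length, the members held 4.91% to 12.4% of a library, again with the lowest value in the non-breeding male liver and the highest in the non-breeding female ovary. The first 10 members alone held 1.97% to 5.24% of the RPKM total. The next 100 genes by the same rule also held most in ovary, a mean of 5.19%, and least in liver, a mean of 2.04%. Their means were 4.14% in testis, 3.97% in kidney and 3.94% in brain.

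**Figure D1:**
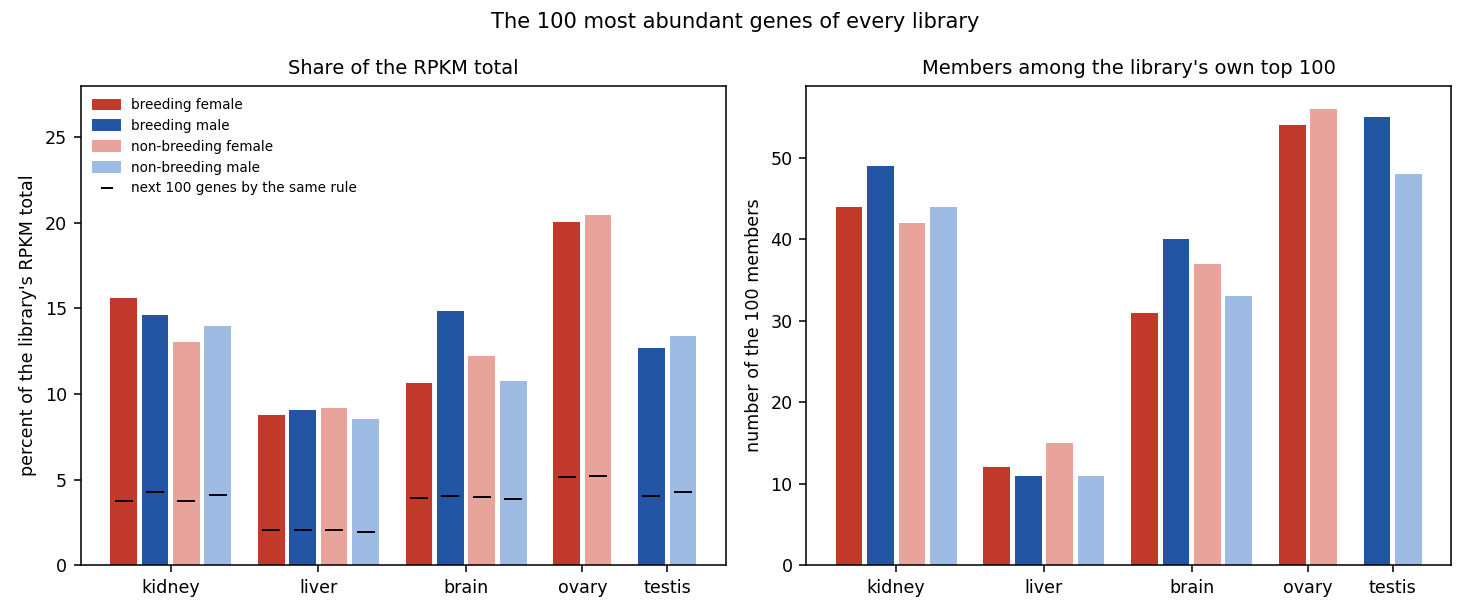
The bars in the left panel give the percent of each library's RPKM total held by the 100 members, by tissue and breeding class, with a dash for the next 100 genes by the same rule. The right panel gives how many members were among the library's own 100 most abundant genes, from 11 in 2 liver libraries to 56 in the non-breeding female ovary.

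The members were abundant everywhere but were not the leading genes of each library. Of the members, 54 in the breeding female ovary and 56 in the non-breeding female ovary were among that library's own 100 most abundant genes. The counts were 55 in the breeding male testis and 48 in the non-breeding male testis, 42 to 49 in kidney, 31 to 40 in brain and 11 to 15 in liver. In liver the library's own 100 most abundant genes held 50.8% to 55.6% of the RPKM total, so a set of largely other genes stood above the members there. Only 4 members were among the first 100 genes of every library, and no other gene was, while 19 members were among the first 100 of no library. All but 1 member were among the first 1000 genes of every library. The exception ranked 1023 in the breeding male liver.

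The member with the highest minimum was DMR_02858, with a coding length of 339 bases. It had 9229 RPKM in the breeding female kidney, 5984 in the breeding male kidney, 4689 in the non-breeding female kidney and 6974 in the non-breeding male kidney. Its liver values, in the same order of classes, were 4948, 7478, 4661 and 8202 RPKM, and its brain values were 2278, 2625, 2567 and 2712 RPKM. It had 4660 RPKM in the breeding female ovary and 3273 in the non-breeding female ovary, and 2695 in the breeding male testis and 3551 in the non-breeding male testis. Every brain value was thus below every kidney and liver value in the deposited scaling, and the breeding classes overlapped in kidney and liver. With equal column totals every brain value was still below every kidney value, but brain and liver overlapped. The non-breeding female liver, at 3575 in that scaling, then lay below every brain, the lowest of which was the breeding female brain at 4165.

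DMR_01692, second by minimum with 708 bases, had its lowest value of 1709 RPKM in the breeding female brain. It reached 10122 RPKM in the breeding male liver, and 7328, 7180 and 6348 RPKM in the breeding female, non-breeding female and non-breeding male livers. Testis gave 6597 RPKM in the breeding male and 8670 in the non-breeding male. Its other brain values were 3998 RPKM in the breeding male, 2331 in the non-breeding female and 2162 in the non-breeding male, so that all brain values except that of the breeding male lay below every other library. At the other end of the order, DMR_01442 had 132.2 RPKM in the breeding female brain and 683.9 in the breeding male kidney, its extremes. DMR_08697, the last member, had 132.1 RPKM in the breeding male testis and 456.9 in the non-breeding female brain. The lowest brain value of DMR_08697, 389.8 RPKM, was above all of its kidney, ovary and testis values.

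**Figure D2:**
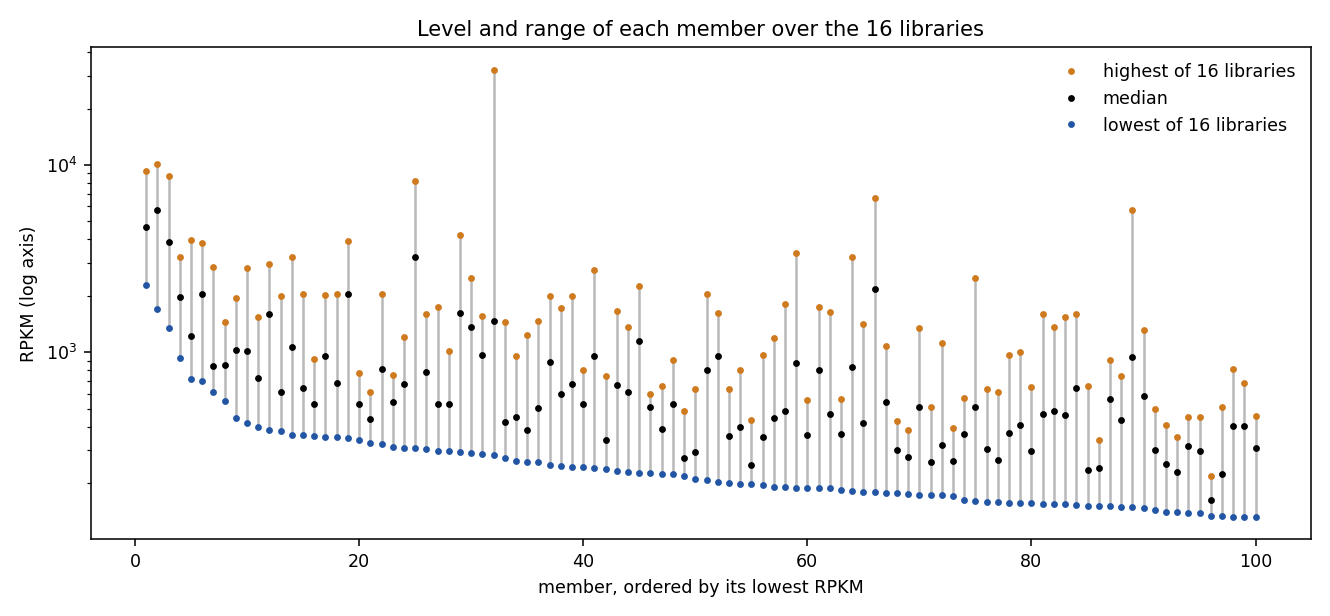
Each vertical line is 1 member, ordered by its lowest RPKM, with its lowest (blue), median (black) and highest (orange) value over the 16 libraries on a log axis. Lowest values lie between 2278 and 132.1 RPKM, while highest values show no such order and reach 32215 RPKM in the member of rank 32.

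The order of the members' levels was shared within a tissue and much less between tissues. Spearman's rho over the 100 members was 0.75 to 0.95 between libraries of the same tissue, with a median of 0.89 over 20 pairs. Between libraries of different tissues it was 0.15 to 0.86, with a median of 0.50 over 100 pairs. These are descriptions across genes of 1 set, which share gene length and are not independent replicates. Kidney and liver were most alike, with a median rho of 0.78, and brain and ovary least, with 0.27. Inside kidney the breeding female library had a median rho of 0.76 to the other 3, against 0.84 to 0.86 for each of those. Inside brain the breeding male library had 0.84, against 0.94 to 0.95 for the others.

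No member led all libraries. Only 2 of the 100 were among the first 10 members of every library, whereas 29 were among the first 10 of at least 1 library. DMR_02858 led the breeding female, non-breeding female and non-breeding male kidneys, and DMR_01692 the breeding male kidney and both testis libraries. All 4 livers were led by DMR_11087. Identifiers outside the naming rule, chosen after their values were seen, led the other libraries: DMR_04535 in both ovaries, with 7693 RPKM in the breeding female and 8691 in the non-breeding female, and DMR_15074 in 3 of the 4 brains. The breeding male brain was led by DMR_13390.

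Although chosen for being high everywhere, the members varied over the libraries by a median of 5.37 times between their highest and lowest value (interquartile range 3.40 to 7.85). Only 2 members varied by less than 2 times and 13 by more than 10 times. The next 900 genes had a median of 3.51 times. Rescaled to an equal column total, the members' median was 6.14 times and no member stayed under 2 times. Differences between tissues outweighed those within: the median SD of log2(RPKM + 1) was 0.73 between tissue means and 0.30 within tissues. The corresponding SDs were 0.52 and 0.26 in the next 900 genes and 0.85 and 0.29 in all genes tested. Tissue took a median of 85.6% of a member's variance, against 80.4% in the next 900 genes and 90.2% in all genes tested.

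The widest range belonged to DMR_11087, at 113 times. It had 16596 RPKM in the breeding female liver, 32215 in the breeding male liver, 24583 in the non-breeding female liver and 30351 in the non-breeding male liver. In kidney it had 620.3, 420.1, 283.9 and 601.5 RPKM in the same order of classes. All other libraries lay between 1150 and 2243 RPKM, so that liver, the other tissues and kidney formed 3 levels without overlap. This member alone held 1.42% to 2.19% of the liver totals and 0.0437% to 0.0911% of the kidney totals.

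DMR_20608, with 38.4 times the second widest range, differed widely between libraries of the same tissue. Without the breeding male brain its range was 23.6 times, below the 31.1 times of DMR_13390 and the 26.6 times of DMR_11243. It had 5721 RPKM in the breeding male brain, against 287.2, 530.3 and 253.9 in the breeding female, non-breeding female and non-breeding male brains. Ovary gave 2235 RPKM in the breeding female and 292.5 in the non-breeding female. Liver gave 3525 and 3416 RPKM in the breeding female and male, and 1716 and 1064 in the non-breeding female and male. In kidney the breeding female and male had 1378 and 1195 RPKM, against 819.6 and 479.5 in the non-breeding female and male. Breeding libraries lay above their non-breeding partners in 5 of the 6 kidney, liver and brain pairs and in ovary and testis, with the female brains as the exception. The narrowest ranges were those of DMR_11091, at 1.63 times (134.4 to 219.4 RPKM, or 1.54 times without the breeding female kidney), and DMR_15572, at 1.89 times (326.6 to 617.0 RPKM).

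**Figure D3:**
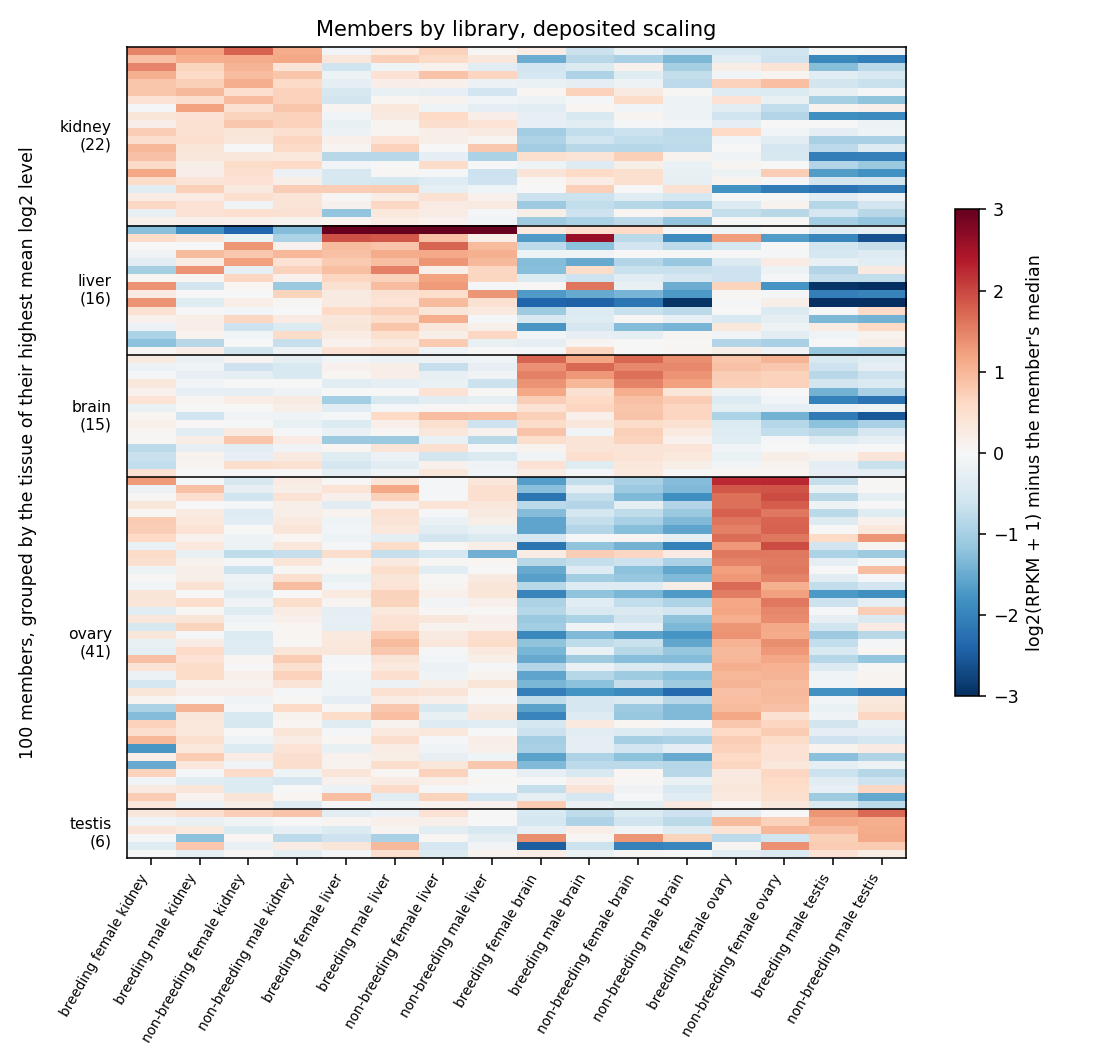
Rows are the 100 members and columns the 16 libraries, colored by log2(RPKM + 1) minus the member's median, from blue (lower) to red (higher), with colors ending at -3 and 3. Rows are grouped by the tissue of the highest mean log2 level in the deposited scaling: kidney 22, liver 16, brain 15, ovary 41 and testis 6 members. The liver group depends on the scaling, and by mean RPKM it has 17 members in the deposited values and 1 with equal column totals. Of all genes tested, 20.5% and 6.56% are highest in liver in these scalings.

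By mean RPKM, 42 members were highest in ovary, 22 in kidney, 17 in liver, 15 in brain and 4 in testis. Of all genes tested, 15.3% were highest in ovary, 12.9% in kidney, 20.5% in liver, 24.6% in brain and 26.8% in testis. Lowest means were found in brain for 45 members, in testis for 39, in ovary for 10, in liver for 4 and in kidney for 2. The corresponding shares of all genes tested were 23.2%, 20.8%, 13.4%, 27.1% and 15.5%. With equal column totals ovary had 41 highest means, 39 of them the same members, and kidney had 24, 16 of them the same. In that scaling 17.9% of the same tested genes were highest in ovary and 13.1% in kidney. Liver then had 1 highest mean and the lowest mean of 72 members, against 6.56% and 61.9% of all genes. Brain then had 22 highest and 14 lowest means, against 27.0% and 13.1%, and testis 12 of each, against 35.4% and 8.38%.

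Each tissue was next compared with the mean of the other 4 by limma, in a fit of all 16 libraries and the 17327 genes with at least 1 RPKM in at least 2 of them. Genes were called at a Benjamini-Hochberg adjusted p under 0.05 with a log2 difference of at least 1. In ovary 31 members were higher and 1 lower, against 11% and 15.6% of all genes tested. In kidney 7 were higher and 1 lower, against 12.4% and 15.5%. Liver had 13 higher and 0 lower, against 15.4% and 23.8%, and at an unadjusted p under 0.05 it had 31 higher and 10 lower, against 27.8% and 45.8% of all genes. Brain had 10 higher and 32 lower, against 20% and 20.4%. Testis had 3 higher and 25 lower, against 21.9% and 19.8%. Without the breeding male brain the counts were 10 and 36 in brain, against 20.6% and 21.3%. Without the breeding female kidney they were 7 and 1 in kidney, against 12.4% and 16%.

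Shares of members called higher were thus above the background in ovary and below it in kidney, brain and testis. Shares called lower were above the background in brain and testis and below it in the other 3 tissues. In liver the share called higher was near its background. The backgrounds depended on genes of low level. With 10 RPKM added in place of 1 before taking log2, 7 members were higher in kidney and 10 in brain. The shares of all genes were then 6.74% and 11.2%, so both counts were near background. Shares of all genes called lower fell to 3.76% in kidney, 5.28% in ovary and 6.2% in liver, against 1, 1 and 0 members. The rule kept all values of the members at 132.1 RPKM or more, which limits how far a member could be lower. In at least 1 tissue 67 members were called, against 72.4% of all genes tested. By the adjusted p alone, with no minimum difference, 43 members were higher and 6 lower in ovary, against 21.4% and 30.4% of all genes. The counts were 33 and 8 in kidney, against 24.2% and 36.7%, 29 and 10 in liver, against 26.9% and 44.9%, 17 and 54 in brain, against 31.7% and 41.5%, and 5 and 47 in testis, against 31.5% and 32.6%.

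Part of these counts depended on the scaling. With equal column totals the calls were 36 higher and 1 lower in ovary, 7 and 1 in kidney, 1 and 63 in liver, 15 and 19 in brain, and 10 and 12 in testis. Of the 18035 genes tested in that scaling, the shares higher and lower were 15.6% and 14.6% in ovary, 12.5% and 18.1% in kidney, 6.64% and 56.7% in liver, 25.4% and 16.8% in brain, and 35.1% and 11.4% in testis. The shares of members called lower in brain and testis were then near these backgrounds, and that in liver was somewhat above its background. The calls shared by the deposited scaling, equal column totals and a count-based test on recovered reads (voom) were 31 higher and 1 lower in ovary, 7 and 1 in kidney, 1 and 0 in liver, 10 and 19 in brain, and 3 and 12 in testis. For these shared calls the share of all genes was not counted. The voom fit alone gave 1 member higher and 52 lower in liver, against 8.42% and 62.3% of all genes.

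Median log2 differences of the members showed the same dependence. In the deposited scaling they were 0.54 in ovary, 0.21 in kidney, 0.15 in liver, -0.62 in brain and -0.52 in testis. Over all genes tested the medians were -0.12, -0.16, -0.25, -0.19 and -0.09 in the same order of tissues. Equal column totals moved the median of all genes to -1.16 in liver and 0.49 in testis, and that of the members to -1.13 in liver and 0.12 in testis. The sign of the members' median in liver and testis thus turned with the scaling. Relative to all genes the members were higher in ovary (0.80 against 0.08 with equal totals) and lower in brain (-0.24 against 0.10) in both scalings. They were also lower than all genes in testis in both, but higher there after quantile normalization, with medians of 0.46 and -0.23.

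**Figure D4:**
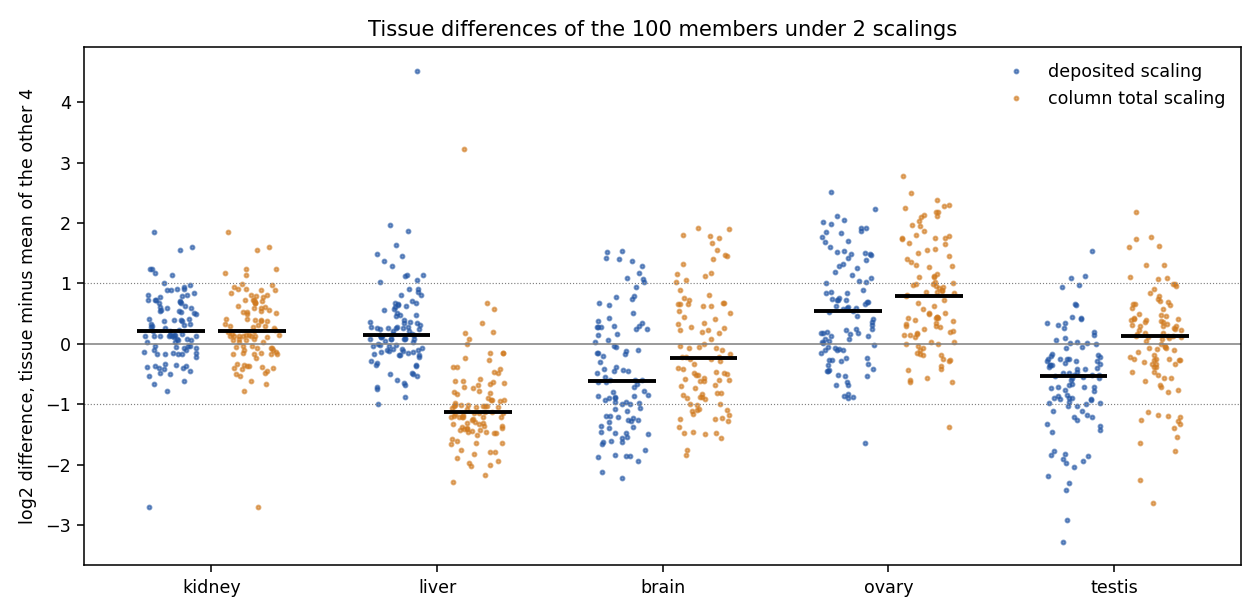
Each dot is 1 member's log2 difference between a tissue and the mean of the other 4, in the deposited scaling (blue) and with equal column totals (orange), with medians as black bars and dotted lines at -1 and 1. The medians in ovary (0.54 and 0.80) and kidney lie above 0 in both scalings, that of brain below 0 in both, and those of liver (0.15 and -1.13) and testis (-0.52 and 0.12) change sign.

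In ovary 31 members were called higher and 1 lower in both scalings, and the share of all genes called in both was not counted. In the deposited scaling 11% of all genes tested were called higher there and 15.6% lower. DMR_18577 had 2410 RPKM in the breeding female ovary and 2483 in the non-breeding female ovary, against a lowest value of 161.6, a median of 498.4 and a highest value of 1240 in the other 14 libraries. Its log2 difference was 2.52 ± 0.35 (SE), with a limma Benjamini-Hochberg adjusted p of 2.91e-05. DMR_18024 had 2756 RPKM in the breeding female ovary and 3407 in the non-breeding female ovary, against 189.3, 780.5 and 1398 RPKM as lowest, median and highest value elsewhere (log2 difference 2.23 ± 0.35 SE, adjusted p 0.000106 by limma). For both members the ovary values lay above all other libraries. The single member lower in ovary was DMR_06219, with 271.3 RPKM in the breeding female and 223.3 in the non-breeding female (log2 difference -1.64 ± 0.33 SE, adjusted p 0.000829 by limma). It was low in testis too, with 203.9 RPKM in the breeding male and 222.5 in the non-breeding male, whereas kidney, liver and brain had 751.1 to 1627 RPKM.

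In kidney, DMR_00255 had 1441 RPKM in the breeding female, 1674 in the breeding male, 1692 in the non-breeding female and 1737 in the non-breeding male, a mean of 1636 ± 133 (SD, n = 4). The other 12 libraries had a lowest value of 188.5, a median of 471.7 and a highest value of 1291 RPKM, with liver next at 1109 ± 144 (SD, n = 4). Kidney did not overlap them, and the log2 difference was 1.85 ± 0.16 (SE), with an adjusted p of 9.06e-08 by limma. DMR_11243 was also called higher in kidney (log2 difference 1.60 ± 0.28 SE, adjusted p 0.000177 by limma) but overlapped liver. Without the breeding female kidney, its highest value, the difference was 1.25, with an adjusted p of 0.000468 by limma. It had 8206, 2476, 3700 and 3288 RPKM in kidney and 3851, 4229, 6154 and 4408 RPKM in liver, in the order breeding female, breeding male, non-breeding female and non-breeding male. The same member had the second most negative difference in testis (log2 difference -2.91 ± 0.37 SE, adjusted p 6.06e-06 by limma). There it had 308.6 RPKM in the breeding male and 340.0 in the non-breeding male. DMR_11243 was low in brain too, at 616.3, 596.8, 705.7 and 419.2 RPKM in the same order of classes as in kidney (log2 difference -1.88).

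DMR_11087 was the member lower in kidney, with a limma log2 difference of -2.70 ± 0.27 (SE) and an adjusted p of 4.73e-07, and the largest call in liver, at 4.52 ± 0.27 (SE, adjusted p 1.00e-09 by limma). With equal column totals its liver difference was 3.23, and it was the only member called higher in liver in both scalings. DMR_20608, second in liver by the deposited values, had a log2 difference of 1.96 ± 0.72 (SE) and a limma adjusted p of 0.0232. With equal column totals the difference was 0.68 and the adjusted p 0.387, and without the breeding male brain they were 2.22 and 0.00101 by limma. Over all alternatives tried the adjusted p ran between 0.00101 and 0.678. The call was also lost when any of 3 libraries was left out: the breeding female liver (limma adjusted p 0.0691), the breeding male liver (0.0722) or the ovary of the non-breeding female (0.0547).

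In brain, DMR_05497 had 1855 RPKM in the breeding female, 1590 in the breeding male, 2044 in the non-breeding female and 1648 in the non-breeding male. Elsewhere it had 360.4 RPKM at lowest, 573.4 as the median and 1076 at highest, and the log2 difference was 1.53 ± 0.15 (SE, adjusted p 2.16e-07 by limma). DMR_05469 had 1575, 2008, 1669 and 1674 RPKM in the same order of brains, all above the highest other value of 1132 RPKM in the breeding female ovary (log2 difference 1.52 ± 0.18 SE, adjusted p 2.40e-06 by limma). Both were next highest in ovary.

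The members with the most negative differences in brain were DMR_16125 and DMR_19635. DMR_16125 had 292.1 RPKM in the breeding female, 1042 in the breeding male, 399.0 in the non-breeding female and 419.0 in the non-breeding male, against 1145, 1981 and 4200 RPKM as lowest, median and highest value of the other tissues. The breeding male brain thus came near the lowest value elsewhere, and the log2 difference was -2.22 ± 0.37 (SE, adjusted p 6.38e-05 by limma), or -2.60 without that library. DMR_19635 had 181.8, 363.2, 312.3 and 203.5 RPKM in the same brains and at least 572.2 RPKM in every other library, with a log2 difference of -2.13 ± 0.23 (SE, adjusted p 6.30e-07 by limma). With equal column totals the differences were -1.84 for DMR_16125 and -1.75 for DMR_19635, and both stayed called. For both members the breeding male brain then lay above every liver except that of the breeding male. For DMR_16125 it also lay above the breeding female kidney.

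DMR_17572 was the largest call in testis, with 3083 RPKM in the breeding male and 3951 in the non-breeding male, against 717.0, 1148 and 2216 RPKM as lowest, median and highest value elsewhere. Its log2 difference was 1.54 ± 0.25 (SE, adjusted p 8.46e-05 by limma). DMR_05272 had 605.3 RPKM in the breeding male testis and 819.9 in the non-breeding male testis, within the range of brain, where it had 968.1 RPKM in the breeding female and 925.4 in the non-breeding female. Its log2 difference was 1.12 ± 0.37 (SE, adjusted p 0.0154 by limma), and the call was lost without the non-breeding male testis (adjusted p 0.161, the highest over all alternatives, of which the lowest was 2.6e-05). DMR_13390 had the most negative difference in testis (log2 difference -3.27 ± 0.73 SE, adjusted p 0.00118 by limma). It had 285.4 RPKM in the breeding male and 178.6 in the non-breeding male, against at least 637.9 RPKM in every other library.

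Breeding status was compared in the 12 kidney, liver and brain libraries, in a limma fit of 15964 genes with tissue, status and sex as terms and 7 residual degrees of freedom. No member was called: 0 were higher and 0 lower in breeding libraries, against 0.0188% and 0.00626% of all genes, which were 3 and 1 genes. At an unadjusted p under 0.05 limma gave 9 members higher and 7 lower, near the 7.22% and 6.31% of all genes, and voom likewise called 0. With each pair of tissue and sex as a block, a fit added after the data had been seen with 5 residual degrees of freedom, limma called 0 members. At an unadjusted p under 0.05 that fit gave 7 members higher and 7 lower, against 6.82% and 5.91% of all genes. The median log2 difference of the members was 0.05, against 0.02 in all genes. Fits with a status effect of each tissue, with 3 residual degrees of freedom, called 0 members in kidney, liver or brain, where the largest share of all genes called in a direction was 0.00626%. At an unadjusted p under 0.05 limma gave 1 member lower in kidney, 1 higher in liver and 0 in brain, against 3.28%, 5.14% and at most 0.877% of all genes, and voom called 0. For a difference between tissues in that effect 0 members were called, and 0 had an unadjusted p under 0.05.

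The members with the lowest unadjusted p are given as values. DMR_09728 had 349.1, 455.6 and 572.4 RPKM as lowest, median and highest of the 6 breeding libraries, and 246.9, 346.1 and 378.5 RPKM in the 6 non-breeding libraries. The groups overlapped, the breeding library was higher in 5 of 6 pairs of tissue and sex, and the log2 difference was 0.42 ± 0.13 (SE, adjusted p 0.253 by limma). DMR_19027 had 201.3, 534.0 and 1084 RPKM in breeding and 191.5, 443.5 and 676.6 RPKM in non-breeding libraries, higher in 5 of 6 pairs (log2 difference 0.45 ± 0.17 SE, adjusted p 0.30 by limma).

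In the other direction, DMR_17243 had 198.3, 237.9 and 343.5 RPKM as lowest, median and highest value in breeding libraries and 234.6, 345.0 and 434.9 RPKM in non-breeding ones. It was lower in all 6 pairs, with a limma log2 difference of -0.39 ± 0.12 (SE) and an adjusted p of 0.236. DMR_02142 had 304.6, 621.7 and 850.2 RPKM in breeding and 375.7, 865.7 and 1024 RPKM in non-breeding libraries, also lower in all 6 pairs (log2 difference -0.43 ± 0.15 SE, adjusted p 0.287 by limma). In all, 0 members were higher and 5 lower in every one of the 6 pairs, against 3.45% and 3.66% of all genes. DMR_17572 was lower in these 6 pairs and in ovary and testis as well. In all 8 pairs 1 member was lower and 0 higher, against 0.639% and 0.796% of all genes.

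Single pairs differed in direction over the members as a whole. The breeding library was the higher one for 62 members in female kidneys, 46 in male kidneys, 37 in female livers, 76 in male livers, 12 in female brains, 68 in male brains, 49 in ovaries and 34 in testes. The share of all genes higher in the breeding library was not counted. In the same order, the members' median log2 ratios were 0.17, -0.02, -0.13, 0.26, -0.29, 0.24, -0.01 and -0.14. Over all genes compared the medians were 0.07, 0.01, -0.01, 0.04, -0.02, -0.03, 0.01 and -0.05. With equal column totals the counts of members were 58, 58, 51, 62, 14, 69, 43 and 55 in the same order of pairs. The side with more members thus turned with the scaling in male kidneys, female livers and testes, and did not turn in female kidneys, male livers, ovaries or either brain pair. A 2-fold difference was rarer. In female kidneys 8 members were at least 2-fold higher and 6 lower in the breeding animal, against 5.13% and 4.08% of all genes. In male brains 8 were higher and 0 lower, against 2.38% and 1.63%. In female livers 3 were higher and 1 lower, against 7.48% and 3.69%, in male livers 2 and 0, against 2.71% and 2.41%, and in ovaries 2 and 1, against 6.21% and 1.89%. Male kidneys had 1 higher and 0 lower, against 2.04% and 1.47%, female brains 1 and 0, against 1.46% and 0.807%, and testes 0 and 1, against 0.585% and 2.5%. Each pair is 1 library against 1, so these differences have no replicate check.

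In the ovary pair the highest ratios of breeding to non-breeding belonged to DMR_20608, at 7.64, and DMR_13390, at 5.45, with 3478 RPKM in the breeding female and 637.9 in the non-breeding female. The lowest belonged to DMR_16125, at 0.408, with 1715 RPKM in the breeding female and 4200 in the non-breeding female, and to DMR_07463, at 0.538, with 804.5 and 1495 RPKM. In the testis pair DMR_20608 and DMR_13390 again had the highest ratios, 1.61 and 1.60. DMR_07581 had the lowest, 0.451, with 324.2 RPKM in the breeding male and 718.6 in the non-breeding male, followed by DMR_21455 at 0.515, with 1055 and 2046 RPKM.

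Within tissues, DMR_20608 and DMR_13390 varied most of all members, with SDs of log2(RPKM + 1) of 1.39 and 1.06, against 0.78 for the next member. DMR_13390 had 6670 RPKM in the breeding male brain, against 2219, 1881 and 772.1 RPKM in the breeding female, non-breeding female and non-breeding male brains. In kidney it had 5550 and 1494 RPKM in the breeding female and male, and 2258 and 1009 RPKM in the non-breeding female and male. Its liver values were 2990 and 4144 RPKM in the breeding female and male, and 5328 and 2141 RPKM in the non-breeding female and male. Breeding libraries were above their partners in 5 of 6 pairs and in ovary and testis, the exception being the female livers. Together both members held 2.43% of the total of the breeding male brain, against 0.198% to 0.458% in the other brains. Without them the members' share of that library was 12.4%, against 10.2%, 11.8% and 10.6% in the breeding female, non-breeding female and non-breeding male brains.

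Variation from library to library within a tissue rested partly on single libraries. The highest value of the 4 kidneys was more than 2 times the lowest for 30 members, against 15.1% of the next 900 genes. The counts were 16 in liver, against 10.2%, and 17 in brain, against 14.7%. Without the breeding female kidney the kidney count was 12, against 5.44%, and without the breeding male brain the brain count was 6, against 2.33%. With each of the 4 livers left out in turn the liver count was between 6 and 13, against 3.44% to 8.89%. In ovary it was 3 members, against 2.11%, and in testis 1 member, against 1.33%. Of the members' squared deviations from tissue means, the breeding male brain held 16.2% and the breeding female kidney 15.3%, against 12.5% and 13.0% in the next 900 genes. The breeding female kidney had 4 members at least 2-fold above and 8 at least 2-fold below the mean of the other kidneys. Of the next 900 genes 0.556% were that far above and 4.11% below. The breeding male brain had 7 members above and 1 below, against 1.67% and 1.78% of the next 900 genes.

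**Figure D5:**
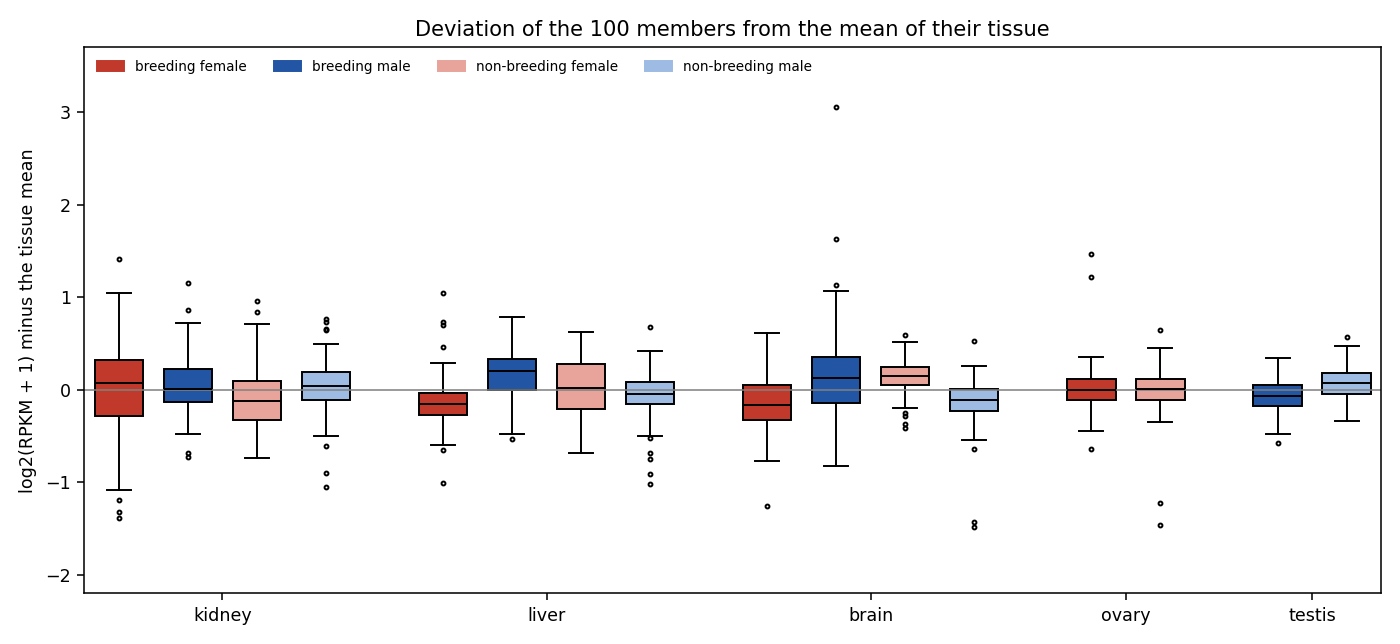
Boxes show log2(RPKM + 1) of the 100 members minus the member's mean in that tissue, for each library, with the median, the quartiles, whiskers to 1.5 interquartile ranges and dots beyond. The breeding female kidney has the widest box, and the dots farthest above 0 in the breeding male brain and breeding female ovary include DMR_20608 and DMR_13390.

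Male and female libraries were compared in the same fit of 12 libraries. Limma called 0 members higher and 0 lower in males, against 0.332% and 0.157% of all genes, or 53 and 25 genes. At an unadjusted p under 0.05 there were 17 members higher and 6 lower, against 10% and 9.4% of all genes. Voom called 0 higher and 2 lower, against 0.683% and 0.664%. With each pair of tissue and status as a block, added after the data had been seen, limma called 0 members, against 0.157% higher and 0.0376% lower of all genes, and 14 higher and 4 lower at an unadjusted p under 0.05, against 8.88% and 8.34%. In all 6 pairs of tissue and status 6 members were higher and 4 lower in males, against 5.36% and 4.52% of all genes.

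DMR_08527 had 141.7, 236.4 and 261.6 RPKM as lowest, median and highest of the 6 male libraries, and 214.2, 350.3 and 408.5 RPKM in the 6 female libraries. It was lower in males in all 6 pairs, with a limma log2 difference of -0.60 ± 0.12 (SE) and an adjusted p of 0.0569. DMR_05272 had 157.5, 260.7 and 587.1 RPKM in male and 241.6, 383.4 and 968.1 RPKM in female libraries, also lower in all 6 pairs (log2 difference -0.79 ± 0.16 SE, adjusted p 0.0624 by limma). Without the breeding female liver both passed, with limma adjusted p of 0.0209 for DMR_08527 and 0.0189 for DMR_05272. Both also passed with breeding class as a random block (adjusted p 0.0215 and 0.0219 by limma), with array weights (0.0191 and 0.0265), with voom (0.0369 and 0.0185) and among genes of 1 RPKM in every library (0.0351 each). DMR_05272 passed with equal column totals as well (0.0488), and neither passed with pairs as a block (0.115 and 0.108). In the random block fit the correlation within breeding classes was -0.0981. A negative value narrows the error of a difference between sexes, so that fit was not a stricter test. Over all alternatives tried the adjusted p ran between 0.0191 and 0.203 for DMR_08527 and between 0.0185 and 0.237 for DMR_05272.

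DMR_17409 had 407.6, 698.7 and 1015 RPKM as lowest, median and highest value in male libraries and 298.6, 480.5 and 557.8 RPKM in female ones, higher in males in all 6 pairs (log2 difference 0.58 ± 0.15 SE, adjusted p 0.0824 by limma). DMR_07581, with 195 bases the shortest member, had 374.2, 945.3 and 1717 RPKM in male and 246.6, 439.4 and 1110 RPKM in female libraries. It was higher in males in 5 of 6 pairs, with a limma log2 difference of 1.04 ± 0.29 (SE) and an adjusted p of 0.102. Male and female ranges overlapped for all 4 of these members. Without the breeding female liver the adjusted p was 0.0437 for DMR_17409 and 0.0494 for DMR_07581 by limma. With breeding class as a random block it was 0.0322 and 0.0485, and with array weights 0.0393 for DMR_17409, while with pairs as a block it was 0.145 and 0.155. These alternatives also raised the calls over all genes, to 2.67% higher and 2.12% lower in males with the random block and 2.04% and 2.68% without the breeding female liver. Over all alternatives tried it ran between 0.0322 and 0.249 for DMR_17409 and between 0.0485 and 0.255 for DMR_07581.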

How the data were processed

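Poly(A)-selected RNA was sequenced in 16 libraries. The authors deposited a single table of RPKM values for genes by libraries, and all of its 16 columns were used. TopHat 1.3.1, a spliced aligner, is named in the submitters' processing notes. For the build, the annotation and the read counting, the tools and versions were not given in the sources used here. No identifier could be paired with a name, so the marker and pathway lists drawn up for the analysis were not used.

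Members and lists were chosen with earlier results of these data known. Values were tested as log2(RPKM + 1), a pseudocount of 1, with limma 3.58.1 in R 4.3.3 (lmFit, eBayes with a mean-variance trend) and Benjamini-Hochberg adjustment over all genes with an RPKM of at least 1 in at least 2 libraries of the fit. Log2 differences are on this scale. Libraries of a tissue stood in for replicates. The threshold was an adjusted p of 0.05, with a log2 difference of at least 1 between tissues. Tissue fits used 16 libraries and status and sex fits 12. The script was tested on simulated data.

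RPKM values proved to be quotients of whole reads: 100% of the values above 0 came within 1e-06 reads of a whole number or 1e-11 of their size, with gene lengths in steps of 3 bases, taken as coding lengths. Voom was run on these reads. Members were named as the first and last by minimum, the widest and narrowest range, up to 2 calls with the largest difference a direction and tissue (the 2 with the lowest unadjusted p where none was called), and the extreme ratios of the ovary and testis pairs. Alternatives covered scaling, pseudocount, filter, variance model, voom, pairs as a block, and each library or tissue left out.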

Additional observations from a re-analysis of the deposited data

Results flagged for a closer look

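In 4 of 90 groups of 4 libraries tested, 1 library lay far from the other 3 for a named member, and chance flags about 1 group in 20. The breeding female kidney stood above the other kidneys for DMR_11091, with 219.4 RPKM against 159.8, 160.5 and 163.3. The breeding male brain stood above the other brains for DMR_20608, with 5721 RPKM against 287.2, 530.3 and 253.9. It did so too for DMR_16125, with 1042 RPKM against 292.1, 399.0 and 419.0, and for DMR_09728, with 572.4 RPKM against 349.1, 369.8 and 378.5.

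The share of the RPKM total held by the members was higher in breeding than in non-breeding kidneys, by 2.61 percentage points in females and 0.6756 in males. Breeding minus non-breeding, it was -0.449 percentage points in ovary and -0.6675 in testis. The signs thus differed between the kidney pairs and the gonad pairs. They also differed between the sexes in brain, at -1.58 in females and 4.07 in males, and in liver, at -0.418 and 0.508. Without DMR_20608 and DMR_13390 the values were 2.07 and 0.480 in female and male kidneys, -1.27 in ovary and -0.722 in testis. In brain they were then -1.60 in females and 1.83 in males, and in liver -0.433 and 0.247. The breeding female kidney, in the pair with the larger kidney difference, stood apart from the other kidneys. Each pair is 1 library against 1. This difference between tissues was not tested.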

How the results depend on the processing

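Calls in liver and testis changed with the scaling. Higher and lower calls were, for equal column totals, scaling to the other genes' total and quantile normalization in turn, 1 and 63, 1 and 69, and 1 and 53 in liver, and 10 and 12, 10 and 12, and 27 and 10 in testis. Shares of all genes were, in the same fits, 6.64% and 56.7%, 6.31% and 59.8%, and 16% and 19.9% in liver, and 35.1% and 11.4%, 35.2% and 11.6%, and 21.1% and 25% in testis. Brain had 19 lower with equal column totals and 21 with the other genes' total, against 16.8% and 17.6% of all genes, and quantile normalization gave 17 higher in brain, 3 lower in kidney and 3 lower in ovary, against 19.1%, 14.9% and 14.4%. Median log2 differences were -1.13, -1.23 and -1.04 in liver, 0.12, 0.11 and 0.46 in testis, -0.24, -0.27 and -0.29 in brain, and 0.80, 0.94 and 0.40 in ovary. Voom gave 1 and 52 calls in liver and 10 and 12 in testis, against 8.42% and 62.3%, and 38.8% and 11.3% of all genes, with medians of -1.01 in liver, 0.063 in testis, -0.47 in brain and 0.89 in ovary. Without a minimum difference, calls higher and lower were 33 and 8 in kidney, 29 and 10 in liver, 17 and 54 in brain, and 5 and 47 in testis, with 6 lower in ovary. Breeding class as a random block gave 2 lower in ovary, against 15.6% of all genes, and 2 higher and 2 lower in males, against 2.67% and 2.12%. The correlation within classes was negative in the fit of males, at -0.0981. Array weights gave 1 lower in liver, against 24%, and 1 higher and 2 lower in males, against 1.86% and 1.57%. Equal column totals gave 1 lower in males, a filter of 1 RPKM in every library 2, and voom 2, against 0.0971%, 1.47% and 0.664%. The cause was not tested.

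Leaving out 1 library at a time gave 0 to 2 lower in liver, 2 to 5 higher in testis, and 0 to 2 higher and 0 to 3 lower in males, the last 2 maxima without the breeding female liver. In the full fit 23.8% of all genes were lower in liver and 21.9% higher in testis. Without the breeding female liver these shares were 24.4% and 22.1%, and in males 2.04% were higher and 2.68% lower. Membership kept 96 to 100 genes. With the first 10, 20, 50, 200 and 500 genes by the same order the median share was 3.51%, 5.52%, 9.24%, 16.8% and 24.3%, in reads 7.16%, and with the 100 highest by mean of tissue means 19.3%. By that last choice, shares ran between 7.68% in the breeding female brain and 51.2% in the breeding male liver, so that the order of tissues differed from that of the members. Equal column totals kept 84 members and ranges had a median of 6.14 times. Reads not divided by length, added after seeing the data, kept 45. The labels carry no replicate numbers, and pairs share tissue with sex or status but are not stated to share animals or batches. With these pairs as a block, added after seeing the data, 0 members were called by status or sex, and medians were 0.049 for breeding and 0.10 for male libraries.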
